A study of Homo sapiens with 6 samples.

Results

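The chemokine ligand genes described here are CXCL1, CXCL2, CXCL3, CXCL5, CXCL6, IL8 (the older symbol of CXCL8), CCL20, CX3CL1, CXCL14 and CXCL16. They were taken by gene symbol, and all 10 were found among the 23245 rows used in each of 6 expression tables. The tables hold messenger RNA levels of L3.6pl, a human line of pancreatic cancer cells that was selected in mice for spread from pancreas to liver. Of the libraries, 3 were parental with wild-type ARID1A and 3 came from ARID1A-deficient cells (titled as an ARID1A knockout), and both kinds of cells were grown in medium with fetal calf serum and received no drug. The ARID1A protein belongs to SWI/SNF, a complex that moves nucleosomes, and binds DNA. The labels name no clones and no sample with restored ARID1A, so ARID1A deficiency and any other difference between the cells cannot be told apart. They speak of triplicate samples without naming separate cultures, and p-values then measure the spread between these samples, which may be technical.

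Chemokines are small secreted proteins that guide the movement of leukocytes through G protein-coupled receptors. CXCL1, CXCL2, CXCL3, CXCL5, CXCL6 and IL8 carry an ELR (glutamate, leucine, arginine) motif before the CXC cysteines, bind CXCR2 and in part CXCR1, and attract neutrophils. CCL20 acts on CCR6 of dendritic cells and lymphocytes. CX3CL1 and CXCL16 are made as membrane-bound proteins that ADAM10 and ADAM17 can shed, and CXCL14 is made by many epithelia. Transcription of the ELR-type ligands is induced by NF-kB in epithelial cells that meet interleukin 1 or tumour necrosis factor.

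The 6 ELR-type genes lie in a cluster on chromosome 4, in the order IL8, CXCL6, CXCL1, CXCL5, CXCL3 and CXCL2. Between them lie 3 further protein-coding genes, PF4V1 after CXCL6 and the platelet chemokine genes PF4 and PPBP after CXCL1. The sequences just before the start sites of the 6 ELR-type genes are shown because they share 1 element. Its part in the levels was not tested. Each is the 120 bases before the transcription start, 5′ to 3′ on the gene's strand, from RefSeq (GRCh38.p14), and the capitals mark matches to the NF-kB (kappaB) consensus or to its core.

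IL8, chr4:73740449-73740568, plus strand: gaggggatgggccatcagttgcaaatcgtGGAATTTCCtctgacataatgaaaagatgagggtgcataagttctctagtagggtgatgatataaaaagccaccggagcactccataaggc

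CXCL6, chr4:73836558-73836677, plus strand: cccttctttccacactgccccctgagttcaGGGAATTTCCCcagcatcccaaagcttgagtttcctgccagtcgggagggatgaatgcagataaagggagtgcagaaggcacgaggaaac

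CXCL1, chr4:73869273-73869392, plus strand: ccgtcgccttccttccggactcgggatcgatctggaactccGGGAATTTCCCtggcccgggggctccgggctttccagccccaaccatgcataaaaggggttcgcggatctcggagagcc

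CXCL5, chr4:73998678-73998797, minus strand: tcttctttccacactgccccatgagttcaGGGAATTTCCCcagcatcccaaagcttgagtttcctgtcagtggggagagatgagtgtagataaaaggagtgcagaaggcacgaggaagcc

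CXCL3, chr4:74038690-74038809, minus strand: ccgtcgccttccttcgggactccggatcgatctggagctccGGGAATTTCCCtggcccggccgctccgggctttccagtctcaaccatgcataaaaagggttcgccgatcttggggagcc

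CXCL2, chr4:74099196-74099315, minus strand: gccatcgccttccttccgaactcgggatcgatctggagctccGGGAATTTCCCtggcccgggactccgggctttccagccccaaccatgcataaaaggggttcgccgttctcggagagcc

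All 6 windows hold the core GGAATTTCC. It was searched on both strands from 250 bases before to 50 after each start, and 0.46% of the 35116 promoters in the RefSeq table hold it. The printed windows of CXCL1, CXCL2 and CXCL3 are much alike, as are those of CXCL5 and CXCL6, so the 6 matches are not independent. Within such like windows a shared match says little. Within the window the core lies at -91 to -83 in IL8, at -78 to -70 in CXCL1 and CXCL3, at -77 to -69 in CXCL2, at -90 to -82 in CXCL5 and at -89 to -81 in CXCL6, counted from the start site. In the 5 CXCL genes the core sits inside a stretch that also fits the longer kappaB consensus, on both strands with overlapping matches, and 11.27% of promoters hold that consensus. The IL8 window fits only the core. It alone among the 6 holds the AP-1 motif TGANTCA (7.71% of promoters), at -137 to -131 and outside the bases printed, and the TATA box TATAAA (11.53% of promoters), at -31 to -26. Promoters were matched for 8 of the 10 genes. CCL20 has 1 match to the kappaB consensus and a TATA box, and CXCL14 has an AP-1 motif and neither kappaB pattern. A match describes letters, not binding.

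Levels are in FPKM, that is, fragment numbers per transcript length and per library, and can therefore be set side by side between genes. Each table sums to between 576084 and 792187 FPKM, and parental library 2 has the highest sum. Total fragment numbers were not used here. ARID1A itself measured 11.8, 6.76 and 9.42 FPKM in parental cells and 3.55, 3.28 and 3.61 FPKM in ARID1A-deficient cells (log2 fold change -1.18, SE 0.18, limma adjusted p = 0.00610). The labelled epithelial cell type was checked by KRT7, KRT8, KRT18, KRT19, EPCAM and CDH1, whose summed level was 6286 to 9831 FPKM in parental and 4527 to 5723 FPKM in ARID1A-deficient libraries. Of these 6 genes, 5 were lower without overlap, beside 18.6% of all tested genes. In limma 0 passed (adjusted p = 0.0828 to 0.328), beside 8.11% of all tested genes called lower. At an unadjusted p under 0.05, 4 were lower, beside 15.7%. By adjusted p, 3 were lower without parental library 2 (16.4% of all tested genes), 4 with each library rescaled to the same sum (5.33%, and 6.39% higher), 5 with quantile normalization (9.74%, and 9.73% higher) and 5 with a replicate block (17.1%, and 14.5% higher).

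IL8, CXCL1 and CXCL6 rose in ARID1A-deficient cells, while CXCL5 and CXCL3, their neighbours in the same cluster, did not pass the test. In the ARID1A-deficient libraries CXCL1 became the most abundant of the 10 transcripts, in place of CXCL5 or CXCL16. Summed over the 10 genes, the level was 34.1 ± 1.64 FPKM in parental and 55.8 ± 1.34 FPKM in ARID1A-deficient libraries (SD, n = 3 each). With limma on log2(FPKM + 1) and Benjamini-Hochberg adjustment over the 12826 genes whose mean reached 0.5 FPKM, 3 of the 7 genes tested were higher and 0 were lower at the threshold of 0.05. Over all tested genes 7.82% were higher, 8.11% lower and 15.9% either. At an unadjusted p under 0.05, 5 of the 7 were higher and 0 lower, where 13.8% of all tested genes were higher and 15.7% lower. Without parental library 2, 5 of the 7 were called higher and 1 lower, but the calls over all genes also went up, to 15.7% higher and 16.4% lower. The median log2 fold change of the 7 was 0.53, beside -0.01 over all tested genes. The genes were chosen with earlier results of these data known, so the counts are a description. In bulk RNA, more cells with a transcript and more transcript per cell cannot be told apart.

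**Figure D1:**
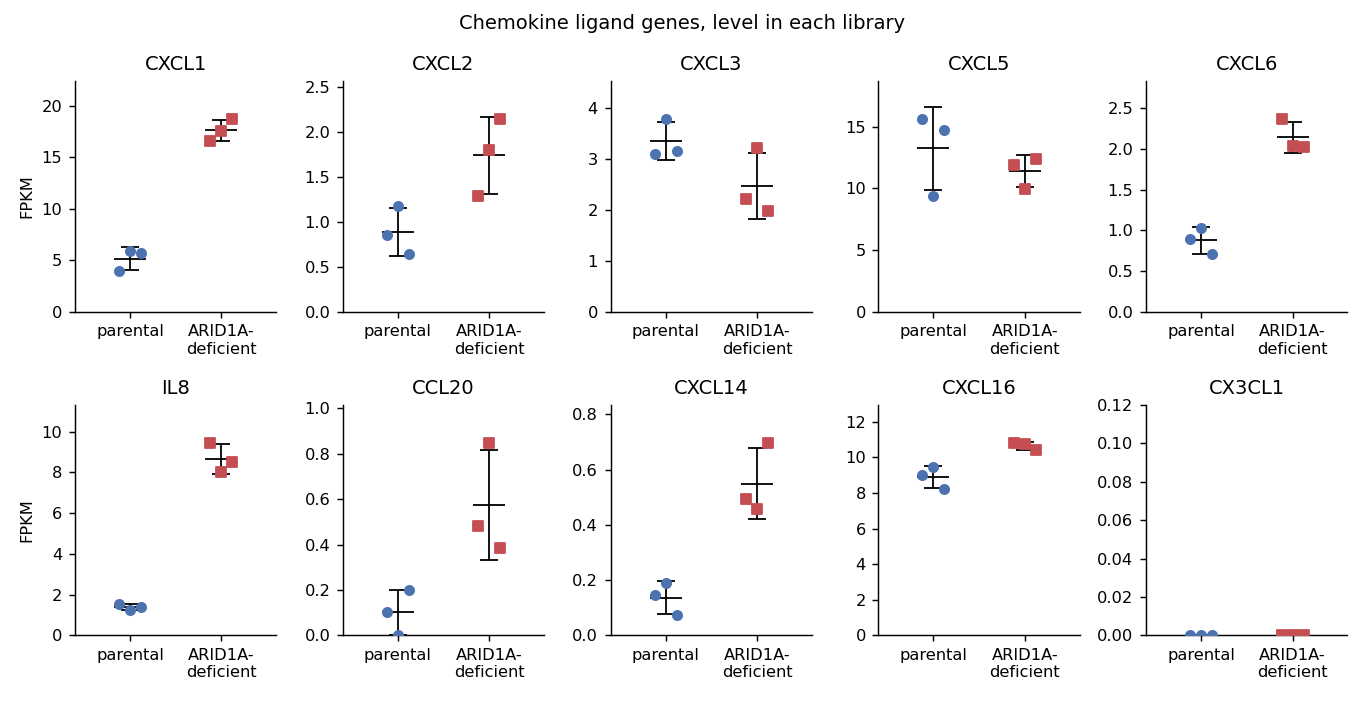
Level in FPKM (vertical axis from 0, own scale per gene) of the 10 genes in the 3 parental (circles) and 3 ARID1A-deficient (squares) libraries, with group mean and SD as bars. CXCL1, CXCL2, CXCL6, IL8, CCL20, CXCL14 and CXCL16 have no overlap between groups, CXCL3 and CXCL5 overlap, and CX3CL1 is listed at 0 throughout.

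IL8, the prototype neutrophil chemokine, stood at 1.53, 1.22 and 1.41 FPKM in parental libraries 1, 2 and 3, against 9.44, 8.01 and 8.53 FPKM in ARID1A-deficient libraries 1, 2 and 3. The lowest ARID1A-deficient library thus lay far above the highest parental one. The ratio of the means was 6.25, and the log2 fold change was 2.02 (SE 0.10, limma adjusted p = 5.26e-05). A log2 fold change on log2(FPKM + 1) understates the ratio of low genes.

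CXCL1, first described as a melanoma growth-stimulating factor, measured 3.93, 5.88 and 5.70 FPKM in parental and 16.6, 17.6 and 18.7 FPKM in ARID1A-deficient libraries. The groups did not overlap, and parental library 1 was the lowest of the 6. Mean levels were 5.17 ± 1.08 against 17.6 ± 1.03 FPKM (SD, n = 3 each), with a ratio of 3.41 (log2 fold change 1.61, SE 0.14, limma adjusted p = 0.000577).

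CXCL6, a ligand of both CXCR1 and CXCR2, measured 0.899, 1.03 and 0.704 FPKM in parental and 2.36, 2.04 and 2.03 FPKM in ARID1A-deficient libraries. It was low in all 6 libraries, yet the groups were clear of each other. The ratio of the means was 2.44 (log2 fold change 0.74, SE 0.11, limma adjusted p = 0.00440). The calls of IL8, CXCL1 and CXCL6 held under each of 13 other analysis settings in which the gene was tested, with a highest adjusted p of 0.00109, 0.00699 and 0.0266.

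CXCL2, a close relative of CXCL1, measured 0.851, 1.17 and 0.641 FPKM in parental and 1.28, 1.80 and 2.13 FPKM in ARID1A-deficient libraries. Every ARID1A-deficient value was above every parental value, but the lowest of them was close to parental library 2. The log2 fold change was 0.53 (SE 0.16, limma adjusted p = 0.0643), with a 95% interval of 0.16 to 0.91. Without parental library 2 the adjusted p was 0.0122.

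CXCL3, the third of these near relatives, measured 3.10, 3.78 and 3.17 FPKM in parental and 2.22, 3.21 and 1.99 FPKM in ARID1A-deficient libraries. The groups overlapped, since ARID1A-deficient library 2 reached the parental range. The log2 fold change was -0.34 (95% interval -0.70 to 0.02, limma adjusted p = 0.195). An increase of the size seen for CXCL1 lies outside this interval.

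CXCL5, an epithelial neutrophil chemokine, measured 15.6, 9.42 and 14.7 FPKM in parental and 11.9, 9.92 and 12.4 FPKM in ARID1A-deficient libraries. Parental library 2 stood well below the other two parental libraries and set the wide spread. The log2 fold change was -0.18 (95% interval -0.63 to 0.27, limma adjusted p = 0.595). Without parental library 2 it was -0.39 and passed as lower (adjusted p = 0.0269), so the call for CXCL5 rests on that library.

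**Figure D2:**
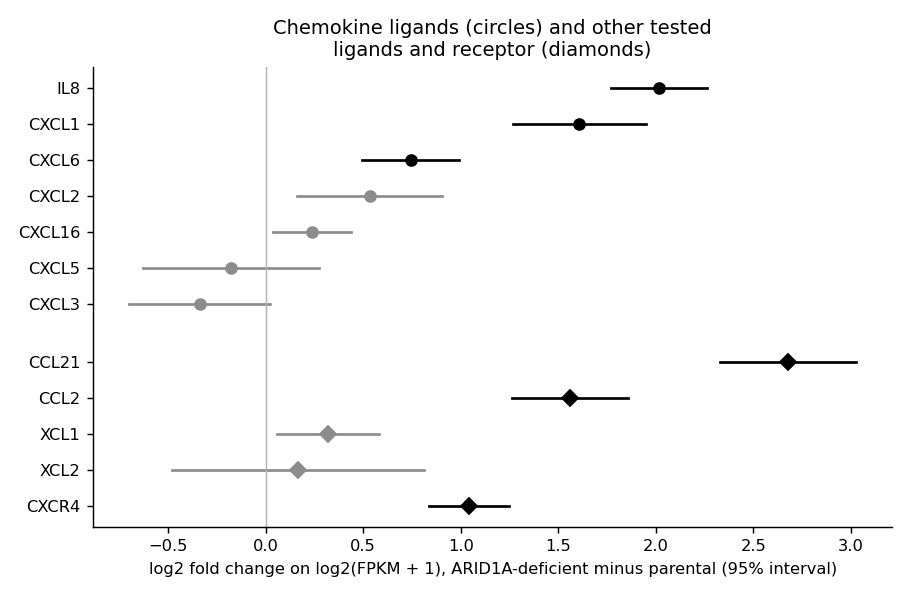
Log2 fold change on log2(FPKM + 1), ARID1A-deficient minus parental, with 95% intervals, for the 7 ligand genes tested (circles) and for the tested genes of the wider ligand and receptor lists (diamonds); black marks passed limma and grey did not. IL8 and CXCL1 lie at 2.02 and 1.61, and the intervals of CXCL5 and CXCL3 include 0.

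CXCL1, CXCL2 and CXCL3 are near-identical copies, which bears on how reads were divided among them. Their coding sequences in GENCODE release 29 are 321 bases long, with an identity of 93.5% between CXCL1 and CXCL2, 90.7% between CXCL1 and CXCL3, and 94.4% between CXCL2 and CXCL3. The longest identical stretch of their transcripts is 77, 55 and 97 bases for the same pairs. CXCL5 and CXCL6 share 87.4% of their aligned coding bases, with a longest identical stretch of 45 bases. IL8 shares 48.6% to 54.1% with the other 5. Values of CXCL1, CXCL2 and CXCL3, and to a lesser degree of CXCL5 and CXCL6, are therefore uncertain where reads fall in shared stretches, while IL8 has no such copy among these genes. The sources used here do not say how the authors divided such reads.

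Ratios of 2 genes within a library do not depend on how that library was scaled. CXCL1 measured 0.252, 0.624 and 0.387 of CXCL5 in the parental libraries, and 1.40, 1.77 and 1.51 times CXCL5 in the ARID1A-deficient libraries. CXCL1 was 1.27, 1.56 and 1.80 times CXCL3 in parental and 7.51, 5.47 and 9.41 times CXCL3 in ARID1A-deficient libraries. CXCL6 was 0.0577, 0.110 and 0.0478 of CXCL5 in parental and 0.199, 0.205 and 0.164 of CXCL5 in ARID1A-deficient libraries. None of the 3 ratios overlapped between groups, and each gave a two-sided exact permutation p = 0.1 (0.1 also after Benjamini-Hochberg adjustment over the 3), the smallest that 3 against 3 libraries allow. The pairs were chosen after the values were seen.

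The make-up of the ELR-type transcripts differed between the groups in the same sense. CXCL5 supplied 60.2%, 41.8% and 55.9% of their summed FPKM in the parental libraries and 27.1%, 23.3% and 27.1% in the ARID1A-deficient libraries. CXCL1 supplied 15.2%, 26.1% and 21.6% in parental and 38.0%, 41.3% and 40.8% in ARID1A-deficient libraries. IL8 went from 5.34% to 5.89% in parental libraries to between 18.6% and 21.5%. The sum itself was 24.9 ± 2.1 FPKM in parental and 44.0 ± 1.62 FPKM in ARID1A-deficient libraries (SD, n = 3 each). These shares are a description and were not tested.

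**Figure D3:**
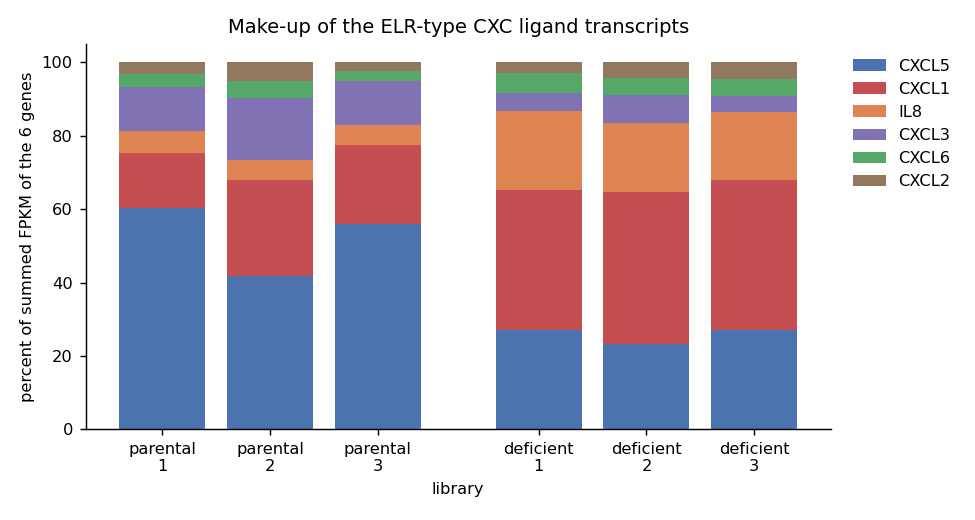
Share (percent, vertical axis) of each ELR-type ligand in the summed FPKM of the 6 genes, 1 bar per library, parental on the left and ARID1A-deficient on the right. CXCL5 (blue) is the widest block in every parental bar, and CXCL1 (red) in every ARID1A-deficient bar, where it takes 38.0% to 41.3%.

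In the parental libraries the order of mean levels was CXCL5, CXCL16, CXCL1, CXCL3, IL8, CXCL2, CXCL6, CXCL14, CCL20 and CX3CL1. The neighbours CXCL5 and CXCL16, CXCL2 and CXCL6, CXCL14 and CCL20, and CCL20 and CX3CL1 overlapped there. In the ARID1A-deficient libraries it was CXCL1, CXCL5, CXCL16, IL8, CXCL3, CXCL6, CXCL2, CCL20, CXCL14 and CX3CL1. Overlaps were then between CXCL5 and CXCL16, CXCL3 and CXCL6, CXCL6 and CXCL2, and CCL20 and CXCL14. IL8 stood clear of both its neighbours in either group.

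CXCL16, the membrane-bound ligand of CXCR6, measured 9.0, 9.49 and 8.25 FPKM in parental and 10.8, 10.8 and 10.4 FPKM in ARID1A-deficient libraries. The groups did not overlap, but the ratio of the means was only 1.2 (log2 fold change 0.24, SE 0.08, 95% interval 0.04 to 0.44, limma adjusted p = 0.114). It passed without parental library 2 (adjusted p = 0.0473) and under no other alternative. No overlap between groups, with ARID1A-deficient cells higher, was found for 5 of the 7 tested ligand genes (16.7% of all tested genes), and with ARID1A-deficient cells lower for 0 of the 7 (18.6% of all tested genes).

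CX3CL1, the other membrane-bound ligand, was listed at 0 in all 6 libraries. Since an exact 0 in these tables can be a failed estimate, this does not show that the transcript was absent. CCL20 measured 0.103, 0 and 0.201 FPKM in parental and 0.484, 0.846 and 0.387 FPKM in ARID1A-deficient libraries. CXCL14 measured 0.148, 0.189 and 0.0724 FPKM in parental and 0.493, 0.457 and 0.696 FPKM in ARID1A-deficient libraries. Neither gene overlapped between groups, but both had a mean under 0.5 FPKM and did not enter the test. With no filter on low values, over 17832 genes of which 6.97% were called higher and 5.98% lower, the log2 fold change was 0.51 for CCL20 (limma adjusted p = 0.0420) and 0.44 for CXCL14 (limma adjusted p = 0.0123).

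The increase of IL8, CXCL6 and CXCL1 was set beside the genes next to them. These 3 lie on the plus strand at one end of the cluster, and CXCL5, CXCL3 and CXCL2 lie on the minus strand at the other. Of the genes between them, PF4V1 and PPBP were listed at 0 in all 6 libraries, and PF4 measured 0, 0.305 and 0 FPKM in parental and 0.375, 0 and 0 FPKM in ARID1A-deficient libraries, so none of the 3 entered the test. Of the 8 nearest tested genes before IL8, RASSF6, a Ras association domain gene, was called lower (log2 fold change -0.69, limma adjusted p = 0.0493), a call that ended under 8 alternatives (highest adjusted p = 0.159). Of the 8 nearest after CXCL2, PARM1, a mucin-like membrane protein gene, rose from 0.566 ± 0.0299 to 1.2 ± 0.0579 FPKM (SD, n = 3 each; log2 fold change 0.49, limma adjusted p = 0.00806). The other 14 neighbours did not pass. Among them, GRSF1, MOB1B, DCK and COX18, all before IL8, were lower without overlap (limma adjusted p = 0.0867 to 0.135). RASSF6 was lower without overlap too, and none of the 8 before IL8 was higher without overlap. Over all tested genes, 18.6% were lower and 16.7% higher without overlap. After CXCL2, PARM1 and EREG were higher without overlap, and none of the 8 was lower without overlap. EREG, which encodes the EGF receptor ligand epiregulin, measured 3.21 ± 0.676 and 4.29 ± 0.318 FPKM (limma adjusted p = 0.161). BTC, which encodes betacellulin, measured 0.605 ± 0.280 and 0.641 ± 0.239 FPKM.

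**Figure D4:**
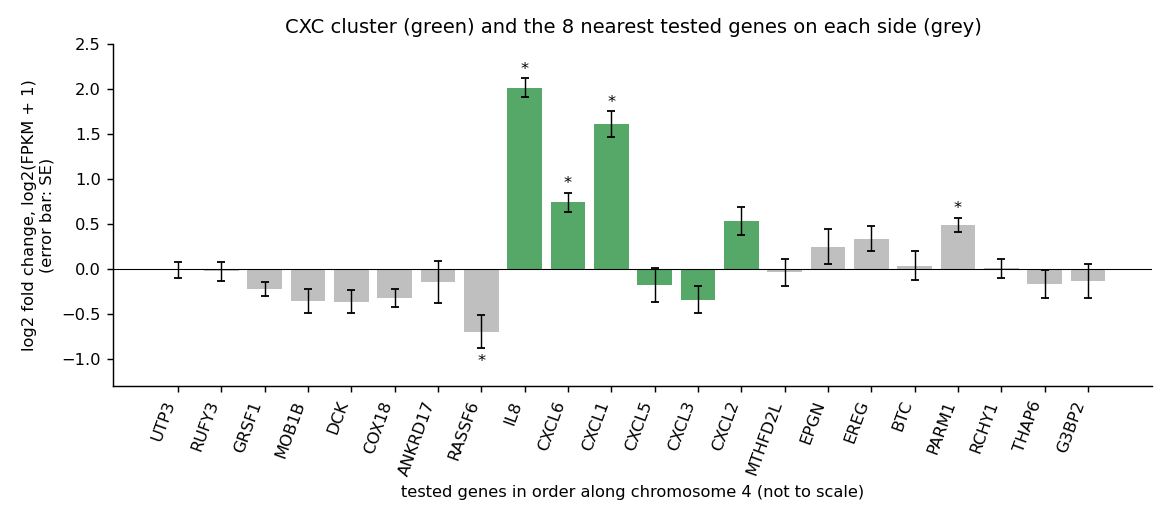
Log2 fold change (bars, with SE) of the ELR-type ligand genes (green) and of the 8 nearest tested genes on each side (grey), in their order on chromosome 4, not to scale; a star marks limma adjusted p under 0.05. IL8, CXCL6 and CXCL1 stand at 2.02, 0.74 and 1.61, and the 16 neighbours lie between -0.69 and 0.49.

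Of 37 other chemokine ligand genes found in the tables, 22 were listed at 0 in all 6 libraries and 4 reached the level for testing. Of these 4, 2 were called higher and 0 lower, beside 7.82% and 8.11% of all tested genes. CCL21, a ligand of CCR7 that guides cells into lymph nodes, had a value of 0 in each parental library and measured 4.41, 6.91 and 5.11 FPKM in ARID1A-deficient libraries (limma adjusted p = 6.58e-05). CCL2, a monocyte chemokine, measured 0, 0.153 and 0 FPKM in parental and 2.36, 2.31 and 1.66 FPKM in ARID1A-deficient libraries (limma adjusted p = 0.000353). Both entered the test through the ARID1A-deficient group alone, where a gene has to differ to pass, and no fold is given. XCL1, a lymphocyte chemokine, measured 0.702 ± 0.132 and 1.12 ± 0.198 FPKM (SD, n = 3 each) and XCL2, its near copy, 0.604 ± 0.288 and 0.870 ± 0.747 FPKM, and neither passed (limma adjusted p = 0.103 and 0.741).

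Of 25 chemokine receptor genes found in the tables, only CXCR4, the receptor of CXCL12, reached the level for testing. It rose from 30.9, 34.6 and 31.4 FPKM to 68.3, 68.7 and 65.5 FPKM (ratio 2.09, log2 fold change 1.04, limma adjusted p = 0.000428). The receptors of the ELR-type ligands were near 0: CXCR2 reached at most 0.0627 FPKM and CXCR1 at most 0.0393 FPKM in any library. CCR6, the receptor of CCL20, reached at most 0.0869 FPKM, CXCR6 at most 0.117 FPKM, and CX3CR1 was listed at 0 in all 6. ADAM10 and ADAM17 did not pass, at 22.8 ± 10.1 and 16.4 ± 3.18 FPKM for ADAM10 (limma adjusted p = 0.543, and 0.0196 as lower without parental library 2) and 15.2 ± 6.07 and 8.72 ± 2.45 FPKM for ADAM17 (limma adjusted p = 0.221, and 0.00997 as lower without parental library 2). Of 5 tested proteases that shed or trim chemokines, 2 were called higher and 0 lower, beside 7.82% and 8.11% of all tested genes. MMP2 rose with a ratio of 9.68 and MMP1, an interstitial collagenase, with a ratio of 1.85. MMP14 measured 82.3 ± 2.09 and 93.2 ± 2.47 FPKM and did not pass (limma adjusted p = 0.257). None of the 5 was lower, also at an unadjusted p under 0.05, beside 15.7% of all tested genes. Without parental library 2, 2 were lower (ADAM10 and ADAM17), beside 16.4% of all genes. With a replicate block 1 was lower, ADAM17 (limma adjusted p = 0.00227), beside 17.1%.

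Genes of NF-kB, a factor whose core pattern all 6 windows above hold, were called higher for 4 of 21 tested members and lower for 0 in limma, beside 7.82% and 8.11% of all tested genes, with a median log2 fold change of 0.10. At an unadjusted p under 0.05, 6 were higher and 1 was lower, beside 13.8% and 15.7% of all tested genes. The adjusted counts were 5 and 1 without parental library 2, where 15.7% and 16.4% of all genes were called. RELB, a subunit of the non-canonical pathway, measured 1.04, 1.57 and 1.18 FPKM in parental and 3.94, 6.59 and 5.43 FPKM in ARID1A-deficient libraries (limma adjusted p = 0.00228). NFKB2, the precursor of its partner p52, rose from 19.0 ± 2.19 to 35.7 ± 4.27 FPKM, and NFKBIA, the feedback inhibitor, from 42.7 ± 3.67 to 80.3 ± 3.79 FPKM (SD, n = 3 each; limma adjusted p = 0.00436 and 0.00169). MAP3K14, the kinase that starts the non-canonical pathway, rose with a ratio of 1.54 (limma adjusted p = 0.0227), a call that ended under 5 alternatives (highest adjusted p = 0.0994). RELA, the main canonical subunit, measured 46.3 ± 1.93 and 53.0 ± 4.14 FPKM and NFKB1 15.6 ± 2.18 and 13.8 ± 1.03 FPKM, and neither passed (limma adjusted p = 0.239 and 0.419). REL, another subunit, went the other way, from 1.09 ± 0.398 to 0.363 ± 0.195 FPKM without overlap, and did not pass (limma adjusted p = 0.0567). It passed as lower without parental library 2 (adjusted p = 0.00420), with quantile normalization (0.0243) and with a replicate block (0.000978).

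A list of cytokines and cytokine receptors, not all of which induce these chemokines, had 11 tested members. In limma 3 were called higher and 0 lower, beside 7.82% and 8.11% of all tested genes, with a median log2 fold change of 0.02. By unadjusted p under 0.05, 4 were higher and 0 lower, beside 13.8% and 15.7%. LIF, an interleukin 6 family cytokine, rose from 17.6, 16.5 and 16.2 FPKM to 49.7, 50.5 and 54.5 FPKM (limma adjusted p = 5.47e-05). CSF3, the granulocyte colony-stimulating factor gene, measured 0, 0 and 0.0503 FPKM in parental and 2.83, 4.10 and 4.0 FPKM in ARID1A-deficient libraries (limma adjusted p = 9.52e-05). IL17RD, an interleukin 17 receptor family member, rose with a ratio of 2.76 (limma adjusted p = 0.0120), a call lost when parental library 3 or ARID1A-deficient library 3 was left out (highest adjusted p = 0.0572). Without ARID1A-deficient library 1, or with a mean of 3 FPKM required, it was not tested. CSF3 and IL17RD, 2 of the 3 calls, had parental means under 0.5 FPKM and reached the test through the ARID1A-deficient group. IL1RAP, the accessory chain of the interleukin 1 receptor, measured 10.2, 5.48 and 8.43 FPKM in parental and 17.1, 12.6 and 13.3 FPKM in ARID1A-deficient libraries and did not pass (limma adjusted p = 0.0514). It passed under 4 alternatives, with an adjusted p of 0.0293 and 0.0154 without parental library 1 and 2, 0.0245 with quantile normalization and 1.67e-05 with the replicate block. TNF, LTA, LTB and IL17A were listed at 0 in all 6 libraries.

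Chemokine transcripts such as IL8 and CXCL1 carry AU-rich elements that bind RNA decay factors. A list of 10 tested genes holds proteins that bind such elements or act in RNA decay. Of these genes, 1 was called higher and 2 lower, beside 7.82% and 8.11% of all tested genes, with a median log2 fold change of -0.10. Without parental library 2, 4 were lower, beside 16.4% of all genes. The higher count was 0 when parental library 1, parental library 3, or ARID1A-deficient library 2 or 3 was left out. ZFP36L2, which promotes decay, fell from 26, 19.8 and 22.3 FPKM to 10.8, 9.16 and 10.6 FPKM (log2 fold change -1.08, limma adjusted p = 0.00160). PARN, a poly(A) ribonuclease, fell from 22 ± 0.893 to 13.6 ± 0.733 FPKM (SD, n = 3 each; limma adjusted p = 0.00228). ZFP36, which encodes tristetraprolin, was called higher (6.58 ± 0.386 and 9.86 ± 1.33 FPKM, limma adjusted p = 0.0263), a call that ended under 5 alternatives (highest adjusted p = 0.121). CNOT1, the scaffold of a deadenylase complex, did not pass at 34.7 ± 6.81 and 29.4 ± 2.99 FPKM (limma adjusted p = 0.403, and 0.0496 as lower without parental library 2).

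**Figure D5:**
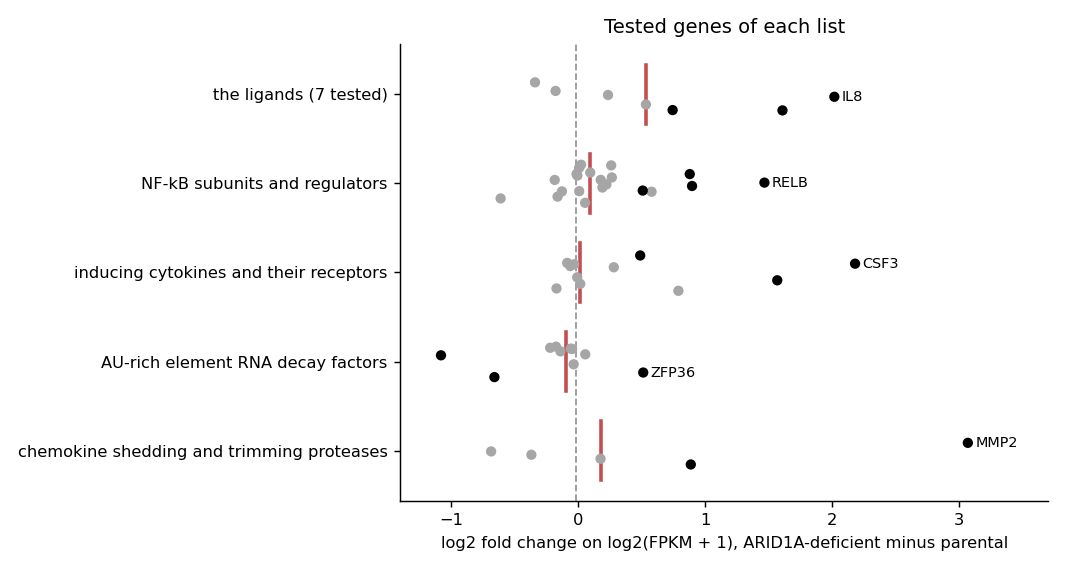
Log2 fold change on log2(FPKM + 1) of each tested gene (points, black where limma passed) for the 7 tested ligands and 4 related lists, with the median of each list (red line) and of all tested genes (dashed line, -0.01); the gene named in each row is its highest. The list medians are 0.53, 0.10, 0.02, -0.10 and 0.18 from top to bottom.

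Markers of other cells that make chemokines were given beside these results. All 12 leukocyte markers were under the level for testing, with a summed level of 0.0840 to 0.189 FPKM in parental and 0.187 to 0.455 FPKM in ARID1A-deficient libraries, and 7 of them, including CD2, CD3D, ITGAM, FCGR3B and MPO, were listed at 0 throughout. Of 15 fibroblast and endothelial markers, 5 were tested, 3 were higher and 1 lower, beside 7.82% and 8.11% of all tested genes. The lower call ended with each library rescaled to the same sum and when any library other than parental 2 was left out. The summed level was 30.1 to 34.2 FPKM in parental and 185 to 199 FPKM in ARID1A-deficient libraries. The 3 that were higher are the collagen genes COL1A1, COL1A2 and COL3A1, of which COL1A2 had a parental mean under 0.5 FPKM and reached the test through the ARID1A-deficient group. Under the level for testing, SPARC (0.0129 and 0.197 FPKM on average) and PDGFRA (0.0365 and 0.238 FPKM) were higher without overlap in ARID1A-deficient libraries. The endothelial markers that were tested are PECAM1 and CDH5. PECAM1, the gene called lower, measured 2.01 ± 0.152 and 1.24 ± 0.143 FPKM (limma adjusted p = 0.0254). CDH5 measured 7.08 ± 0.945 and 7.62 ± 0.177 FPKM and did not pass (limma adjusted p = 0.594). PDGFRB, THY1, FAP, VWF, KDR and TEK, all under the level for testing, overlapped. DCN and LUM, matrix genes of fibroblasts, had a value of 0 in each of the 6 libraries. Their part in the chemokine differences was not tested.

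The 3 tested genes whose profile over the 6 libraries was most like that of IL8, by Pearson's r of log2(FPKM + 1), were TULP4, NT5E and SGK1, with r of 0.9996, 0.9995 and 0.9995. TULP4 measured 1.63 ± 0.0238 and 2.40 ± 0.0568 FPKM, NT5E, which encodes the ecto-enzyme CD73, 2.12 ± 0.284 and 14.2 ± 1.82 FPKM, and SGK1, a serum- and glucocorticoid-regulated kinase gene, 8.75 ± 0.711 and 48.2 ± 3.62 FPKM (SD, n = 3 each). With 2 groups of 3 libraries, r mostly reflects the group difference, and 165 of 12819 genes had an r over 0.99. The same r with IL8 was 0.97 for CXCL1, 0.97 for CXCL6, 0.89 for CXCL16, 0.80 for CXCL2, -0.30 for CXCL5 and -0.75 for CXCL3.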

How the data were processed

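Per the labels' protocols, mRNA was captured on beads and prepared with a TruSeq kit of a type that does not mark strand. The authors deposited 1 table of FPKM values per sample. The submitters' processing notes name GRCh37 (hg19), Cuffdiff 2.2.1.5, Cuffnorm 2.2.1.2 and TopHat2 2.1.1, and the sources used here do not give annotation, scaling or the handling of shared reads. Of 23273 rows, 28 whose symbol had become a date were left out. Groups came from sample titles. No depth is known, so precision rests on the 3 libraries of a group.

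Differences were fitted with limma 3.58.1 (R 4.3.3) on log2(FPKM + 1), with trend and robust moderation and group as the only term, over the 12826 genes whose mean reached 0.5 FPKM. P-values are two-sided and Benjamini-Hochberg adjusted over all of them. The procedure was tested on simulated data with independent normal noise. Those data hold no effect shared by a whole library, so the test does not cover that case. The ligand genes and all lists were chosen with earlier results of these data known. Named genes are the 10 ligands, every tested other ligand or receptor, and the 3 most like IL8. Of each other list, up to 4 tested members with the smallest adjusted p are named. The 8 nearest tested genes on each side of the cluster are named where called or without overlap, with BTC as an example of the rest. ADAM10, RELA, NFKB1, REL, genes near or at 0 and markers are added as background. Gene order came from RefSeq (GRCh38.p14), used for order only, and promoter windows from its sequence table. Alternatives were another pseudocount, 2 filters, 2 scalings, plain limma, each library left out and a replicate block.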

Additional observations from a re-analysis of the deposited data

How the results depend on the processing

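The direction of all 7 tested ligand genes was the same under every alternative run, and the calls of IL8, CXCL1 and CXCL6 held wherever they were tested; with a minimum mean of 3 FPKM, CXCL2, CXCL3 and CXCL6 were not tested. In the main fit 3 of the 7 tested ligand genes were higher, beside 7.82% of all tested genes. With no filter on low values, where CCL20 and CXCL14 enter, 5 of 9 were higher, beside 6.97%. With each library rescaled to the same sum, 5 of 9 were also higher, beside 6.39%. After rescaling, CCL20 and CXCL14 pass the filter through the ARID1A-deficient group, where they are higher, so their calls there add no support. Without single libraries 3 to 5 of 7 were higher, with 5 only without parental library 2, beside 15.7%. Where the mean had to reach 3 FPKM, 2 of 4 were higher. The number of lower ligand genes, 0, was 0 to 1 of 7 without single libraries. It was 1 only without parental library 2, beside 16.4% of all genes. Without single libraries the log2 fold change was 0.43 to 0.66 for CXCL2, -0.39 to -0.052 for CXCL5 and 0.19 to 0.28 for CXCL16. Over all genes, 960 to 4113 were called without single libraries (522 to 2009 higher, 438 to 2104 lower), against 2043; 4113 is without parental library 2. With a minimum mean of 3 FPKM, 667 were higher. XCL2 ranged from -0.14 without ARID1A-deficient library 2 to 0.33 without single libraries. With a pseudocount of 0.1 the difference was 1.82 for CCL20 and 1.47 for CXCL14. The cause of these changes was not tested.

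Whether same-numbered libraries share more than a number was not tested. Their deviations from the group means correlated at r = 0.22, 0.22 and -0.01 for numbers 1, 2 and 3. Parental libraries 1 and 2 correlated best with their own number, and parental library 3 did not. The sum of FPKM was lowest for number 1 and highest for number 2 in both groups. The main fit has no term for the number. With the replicate block 4049 genes were called (1861 or 14.5% higher, 2188 or 17.1% lower), and 1 of 7 ligand genes was lower: CXCL3 (-0.34, adjusted p = 0.0299). CXCL2 (0.53, adjusted p = 0.00574) was then called higher.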

Other observations

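Several related genes had a mean under 0.5 FPKM and did not enter the test, and are given as values only, named after the values were seen. CXCL11, an interferon-induced ligand of CXCR3, measured 0.0468, 0 and 0 FPKM in parental and 0.477, 0.578 and 0.822 FPKM in ARID1A-deficient libraries. IL1A, which encodes interleukin 1 alpha, measured 0.0961, 0.123 and 0.0706 FPKM against 0.565, 0.560 and 0.392 FPKM. IL6 had a value of 0 in each parental library and measured 0.314, 0.457 and 0.0837 FPKM in ARID1A-deficient libraries. In the other direction, IL1R1, the interleukin 1 receptor gene, measured 0.446, 0.356 and 0.463 FPKM in parental and 0.142, 0.153 and 0.105 FPKM in ARID1A-deficient libraries. CCRL2, an atypical chemokine receptor gene, measured 0.566, 0.421 and 0.553 FPKM against 0.222, 0.258 and 0.295 FPKM.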
